A study of Homo sapiens with 6 samples.

Results

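Homologous recombination copies an intact sister DNA molecule to mend a broken or stalled one. Broken ends are trimmed to single strands, BRCA2 and its partners prepare them to invade the intact molecule, and helicases and nucleases then take apart the joined molecules. The Fanconi anaemia (FA) pathway removes crosslinks between the DNA strands: a core complex attaches ubiquitin to the FANCD2-FANCI pair, which brings in nucleases and the recombination proteins, and the kinases ATM, ATR and CHEK1 signal that damage is present. The 39 genes described here cover both pathways and their kinases, out of 16229 genes in the deposited table. They were chosen by function with the GCA over CON fold changes and calls of this same table already known, so those values are given as a description and support nothing further. All 39 had a row, and all 39 passed the filter on low counts, as did 12604 genes in all.

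RNA sequencing had been done on 3 libraries from cells treated with GCA for 24 hours and 3 libraries from cells without it (CON). The labels name the cells as MC38, a colorectal cancer line of wild-type genotype in both groups, and the title of the series spells out glycocholic acid, a bile acid. No dose is stated in the sources used here. PolyA RNA is given as the molecule, while the kit named is one for total RNA. MC38 is known as a mouse line, whereas the organism label, the build and the gene symbols are human, and an extraction note mentions heart tissue. The GCA libraries carry the title "fa", so every GCA value rests on their treatment label. Whether replicates were separate cultures is not stated, and p-values then measure only the spread between these libraries, which may be technical.

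Library totals ran from 19484569 to 20531612 counts in GCA and from 18057453 to 19110987 in CON. CON 1 stood apart from its replicates: the second principal component held 18.1% of the variance, and CON 1 scored 34.5 on it while CON 2 and CON 3 scored -14.7 and -17.8. The epithelial markers KRT8, KRT18, KRT19 and EPCAM were abundant, with EPCAM at 317 ± 17.1 CPM in GCA and 276 ± 4.64 CPM in CON (SD, n = 3 each; CPM is the count scaled to a common library total). The gut transcription factor gene CDX2 was at 36.7 CPM in GCA and 30.8 CPM in CON, while CDX1 and VIL1 averaged less than 1 CPM in both groups. Of the epithelial markers, 4 of 8 tested were higher in GCA and none was lower. The 4 were KRT8, KRT18, KRT20 and CDH1, and only KRT18 kept its call whichever single library was left out. With the GC and length offsets described below, 2 were higher and 1 was lower. KRT8 (adjusted p = 0.385) and KRT18 (0.08) then had no call, and KRT19 was called lower (log2 -0.35, adjusted p = 0.0286). Markers of other cell types were also measured. The cardiomyocyte list summed to 37.2 to 42.4 CPM in GCA libraries and 23.5 to 26.8 CPM in CON libraries, the leukocyte list to 31.6 to 41.4 and 27.7 to 31.6 CPM, and the fibroblast and endothelial list to 16.5 to 18.5 and 11.9 to 13.2 CPM. The erythroid list summed to 13.1 to 15.2 CPM in GCA and 10.7 to 12.4 CPM in CON, and the hepatocyte list to 11 to 16.2 and 13.7 to 14.4 CPM. Of the 10 genes tested on these lists 5 rose and none fell: TNNI3 (38.1 CPM in GCA and 23.8 in CON), CORO1A (16.3 and 7.32), COL1A1 (15 and 11.1), HBA2 (4.77 and 2.83) and VWF (1.68 and 0.615). With the GC and length offsets described below, CORO1A and VWF kept their calls and TNNI3, COL1A1 and HBA2 did not. The calls of COL1A1 and HBA2 were also lost without CON 2 (adjusted p = 0.0749 and 0.0813), CON 3 (0.108 and 0.0883), GCA 1 (0.0508 and 0.103) or GCA 2 (0.0551 and 0.145), and that of COL1A1 without GCA 3 (0.144). The other tested genes on these lists had no call. They were CD68 (18.3 CPM in GCA and 22.3 in CON), CPS1 (13.9 in both), HBB (9.25 and 8.47), MYL2 (0.981 and 1.64) and PDGFRB (0.487 and 0.544). Some markers below the filter lay near 0. MYH6, MYH7, ACTC1 and NPPA of cardiomyocytes and ALB of hepatocytes had no counts in GCA and at most 2 in a CON library. PTPRC and CD3E of leukocytes had at most 1 in any library. The part of other cell types in the results below was not tested.

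Most of the recombination and FA genes were lower in GCA. Of the 39 genes, 29 fell, none rose and 10 had no call at an adjusted p of 0.05 (edgeR's quasi-likelihood test, Benjamini-Hochberg adjusted over all tested genes). Over all tested genes, 36.4% had a call: 18.1% were lower and 18.3% higher. The median log2 fold change of the 39 genes was -0.75, beside -0.04 over all tested genes, and 38 of the 39 values were negative. The largest falls were those of ZGRF1, BRCA1, MMS22L, BRCA2 and RAD54B, all between -1.54 and -1.29 on the log2 scale. In 10 genes the fall was at least 1 on the log2 scale, which 1.44% of tested genes also reached. In 25 genes all 3 GCA libraries lay below all 3 CON libraries, as they did in 24.3% of tested genes. In bulk RNA, fewer cells of a kind and less RNA per cell cannot be told apart.

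**Figure D1:**
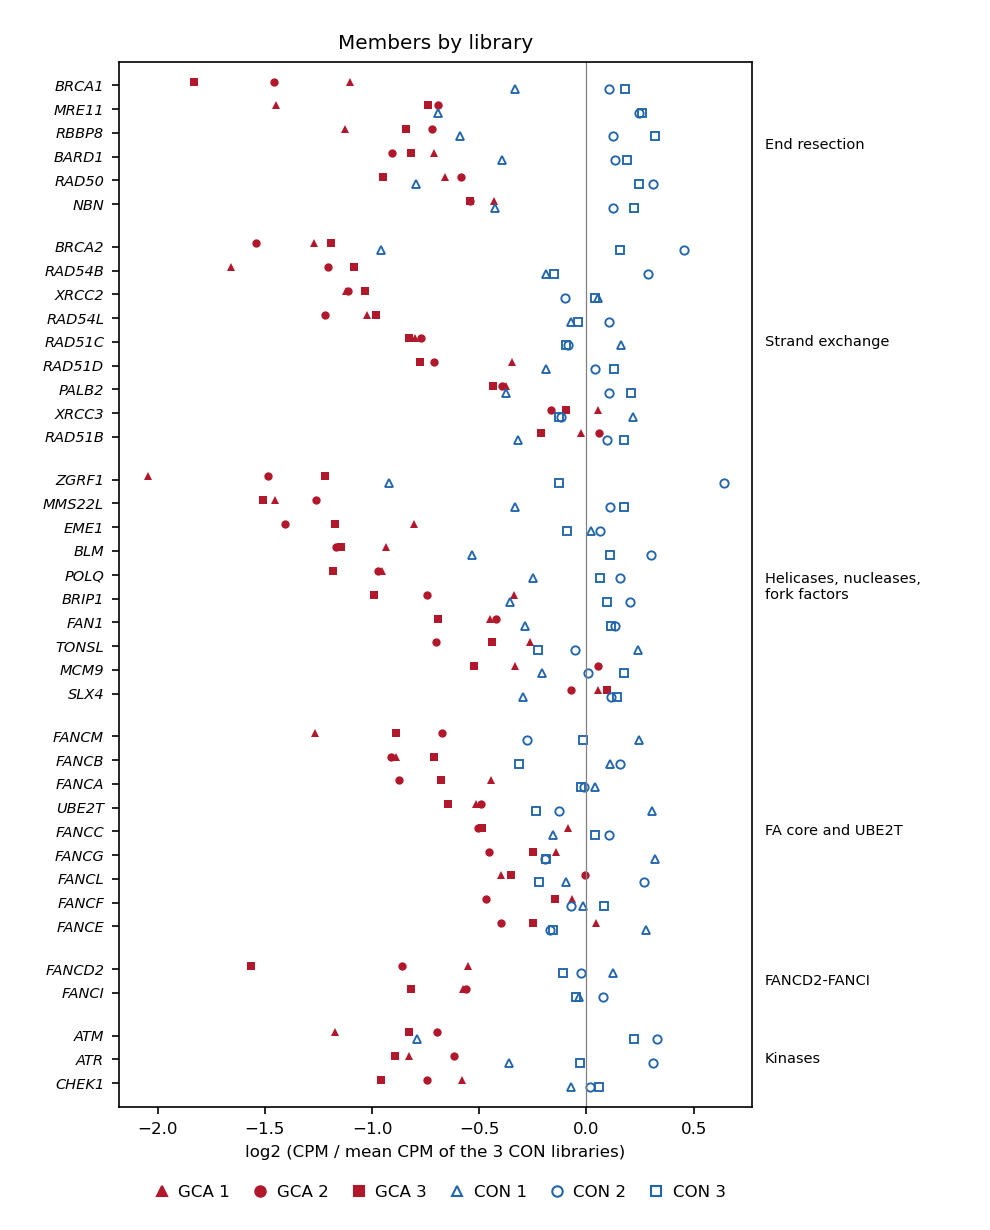
Each row is 1 gene, and each point is 1 library's CPM over the mean of the 3 CON libraries on a log2 scale; filled red symbols are GCA, open blue symbols CON, and triangles, circles and squares mark replicates 1, 2 and 3. Most GCA points lie to the left of the CON points, and the CON 1 triangle lies nearest the GCA points in many rows, such as RAD50, ATM and BRCA2.

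Of the CON libraries, CON 1 had the lowest level in 24 of the 39 genes, beside 48.6% of all tested genes. In 10 of the 39, CON 1 did not exceed the highest GCA library. Over all tested genes this held for 7810 of 12604, a count that includes the genes higher in GCA. The 2 numbers are therefore not alike in kind. Without CON 1, 31 of the 39 were called lower, and 3482 genes in all, against 2277 with all libraries. Without replicate 1 of both groups the numbers were 30 and 3709, without GCA 3 they were 18 and 1128, and without CON 2 they were 19 and 1297. The calls over all genes thus moved the same way as those of the 39, and 16 of the 29 calls were kept whichever single library was left out.

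Base composition moved with these results. The transcripts of the 39 genes had a median GC content of 42.4% and a median length of 6101 bases, beside 50.4% and 3993 bases over all tested genes. Across the 12563 tested genes with a GC value, the log2 fold change correlated with GC content at r = 0.49, and across the 39 genes at 0.53. These correlations run over genes, which do not replicate each other. With offsets fitted to GC content and length in each library, 24 of the 39 genes were lower and none was higher, beside 28.9% of tested genes with a call, 17.3% lower and 11.7% higher. Over all tested genes there were 1465 higher and 2168 lower calls with the offsets, and 2307 higher and 2277 lower calls without them. The median of the 39 genes was -0.51 with offsets. The offsets were fitted without regard to group, so any treatment effect that follows GC content or length is taken out as well. Of the 29 calls, 21 were kept; those of ATM, BRIP1, FAN1, FANCB, FANCM, MRE11, NBN and RAD50 were lost, and FANCE, FANCG and XRCC3 were called lower instead.

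**Figure D2:**
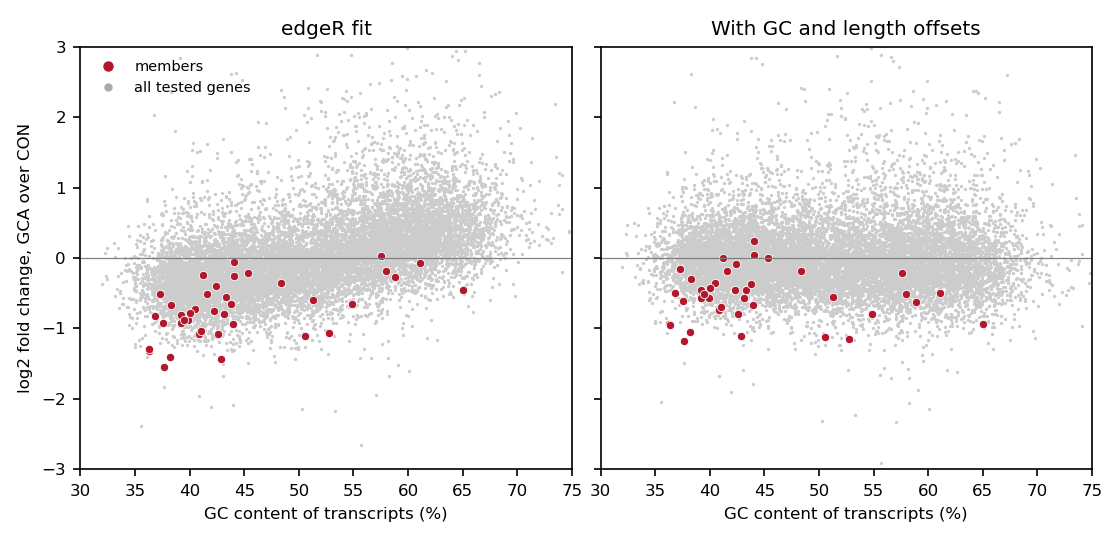
Log2 fold change of GCA over CON against the GC content of each gene's transcripts, without offsets on the left and with GC and length offsets on the right; red points are the 39 genes, grey points all tested genes with a GC value, and both axes omit the most extreme genes. Most red points lie at low GC content and below 0 in both panels, with a median of -0.75 on the left and -0.51 on the right.

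Levels per length, as FPKM (counts scaled by gene length and library total), spanned a wide range. UBE2T, which encodes the ubiquitin-conjugating enzyme of the FA pathway, was the highest, at 50.8 ± 3.10 FPKM in GCA and 76 ± 10.5 FPKM in CON (SD, n = 3 each). FANCG and TONSL followed, at 31.9 and 30.5 FPKM in GCA and 39.5 and 43.0 FPKM in CON, and these neighbours lay within 1 SD of each other in both groups. At the low end stood ZGRF1 and FANCB, at 0.156 and 0.185 FPKM in GCA and 0.478 and 0.340 FPKM in CON, and RAD51B at 0.304 and 0.329 FPKM. Within the trimming complex, NBN was at 3.5 FPKM in GCA and 5.18 in CON, RAD50 at 1.74 and 3.02, and MRE11 at 0.393 and 0.778.

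**Figure D3:**
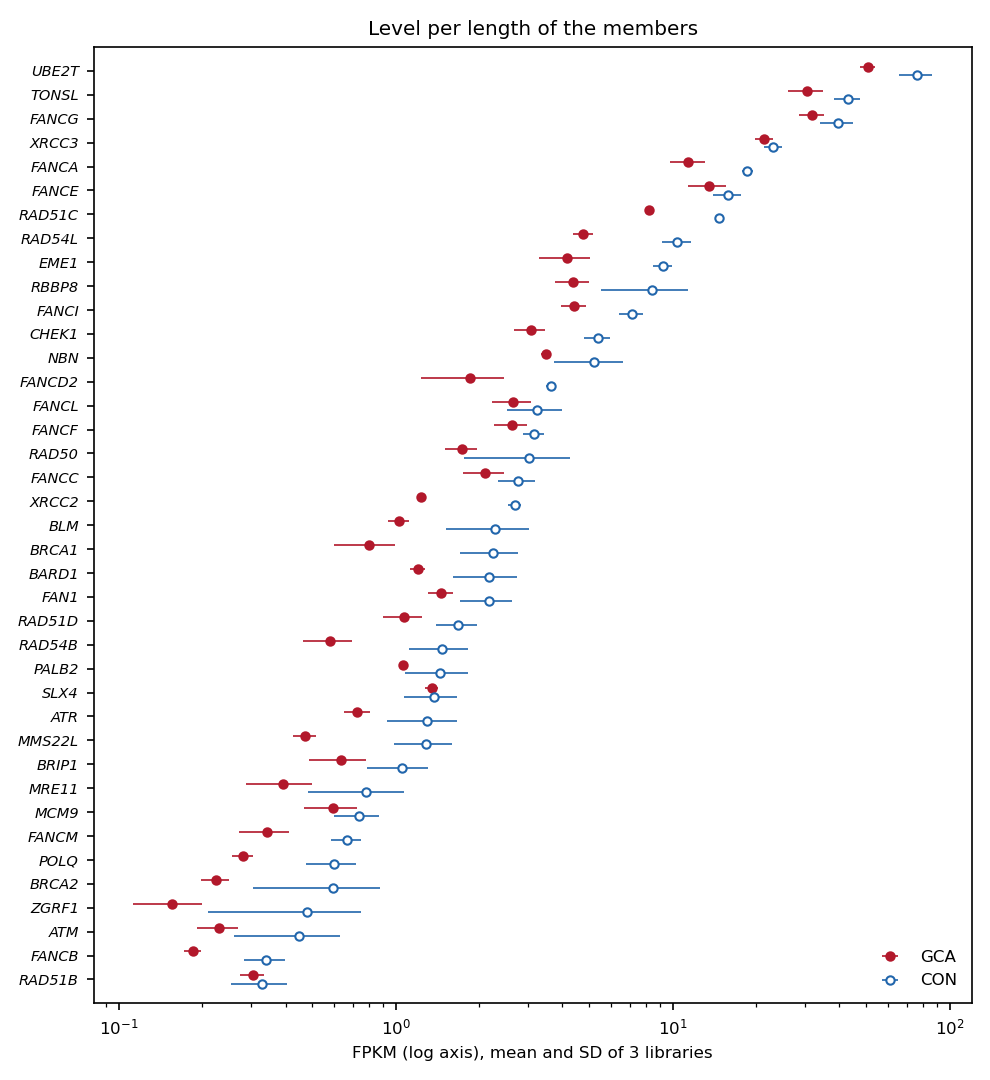
FPKM on a log axis for each of the 39 genes, ordered by their CON mean; filled red points are GCA, open blue points CON, and bars are the SD of 3 libraries. UBE2T, TONSL and FANCG lie highest and RAD51B, FANCB and ATM lowest in CON, and the GCA mean lies below the CON mean in every row.

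Promoters are shown because most of these genes moved in 1 direction and because E2F-type and CHR-type sites are known from promoters of genes expressed as cells copy DNA and divide. RefSeq promoter windows of 250 bases before to 50 after the gene start (GRCh38.p14) were at hand for 35 of the 39 genes, and the others were NBN, RAD54B, TONSL and FANCI. Both strands were searched for the E2F-type motifs TTTGGCGC, TTTCGCGC, TTTCCCGC and TTTGCCGC. These were found in 4 of the 35 windows (11.4%), beside 5.4% of the windows of 10155 tested genes and 3.3% of all 27305 windows. Those of CHR type, TTTGAA and TTCGAA, were found in 6 of 35 (17.1%), beside 10.7% and 16.6%, and CCAAT in 15 of 35 (42.9%), beside 36.6% and 35.7%. In these genes no match of one kind overlapped one of another kind. BRCA1 and BRCA2, at -1.43 and -1.33 on the log2 scale, held no match of any kind. Of the genes with no call before the offsets, XRCC3, FANCF, PALB2 and MCM9 held CCAAT, and FANCC held E2F-type matches and TTTGAA. With the offsets only XRCC3 among these was called. Whether matches go with fold changes was not tested. A match is only a description of the letters.

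The E2F-type matches lay in FANCA, FANCC, FANCD2 and XRCC2; that of XRCC2 lies after the gene start and is not printed. Capitals mark E2F-type matches, which on the strand opposite to the gene read as their complement from the other end. Positions are counted from the gene start in the RefSeq promoter table. The FANCA window runs from -192 to -145 (chr16:89816792-89816839, minus strand), that of FANCC from -192 to -19 (chr9:95317728-95317901, minus strand) and that of FANCD2 from -22 to 5 (chr3:10026415-10026442, plus strand).
FANCA: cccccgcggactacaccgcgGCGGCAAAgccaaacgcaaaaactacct
FANCC: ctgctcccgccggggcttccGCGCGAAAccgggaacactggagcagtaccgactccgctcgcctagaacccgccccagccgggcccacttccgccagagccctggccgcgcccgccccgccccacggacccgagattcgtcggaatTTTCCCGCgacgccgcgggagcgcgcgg
FANCD2: tcagagcggcgtcgggcctgGCGGGAAA

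ZGRF1 and MMS22L, which had the largest falls among the helicases and fork factors, and UBE2T, the most abundant gene, are set beside them. Here capitals mark matches to CCAAT on either strand and to TTTGAA. The ZGRF1 window runs from -106 to -53 (chr4:112636962-112637015), that of UBE2T from -173 to -49 (chr1:202341985-202342109) and that of MMS22L from -165 to -12 (chr6:97283228-97283381), each on the minus strand. For MMS22L that start lies inside the outermost bounds of the gene, so its window is inside the annotated gene.
ZGRF1: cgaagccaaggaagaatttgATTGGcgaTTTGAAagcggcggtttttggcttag
UBE2T: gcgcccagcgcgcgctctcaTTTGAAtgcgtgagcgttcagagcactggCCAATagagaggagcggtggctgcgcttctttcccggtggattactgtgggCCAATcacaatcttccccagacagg
MMS22L: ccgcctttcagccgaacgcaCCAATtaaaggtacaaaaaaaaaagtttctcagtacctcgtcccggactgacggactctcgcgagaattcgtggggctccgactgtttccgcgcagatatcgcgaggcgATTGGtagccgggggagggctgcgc

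All 6 genes of end trimming fell. BRCA1 (chromosome 17, 43044295 to 43170327) pairs with BARD1 in a ubiquitin ligase that favours trimming and recruits BRCA2 through PALB2. BRCA1 stood at 7.29, 5.70 and 4.40 CPM in GCA 1 to 3, against 12.4, 16.8 and 17.7 CPM in CON 1 to 3. The groups did not overlap, and the log2 fold change was -1.43 ± 0.21 (SE; adjusted p = 0.000333), or -1.11 with GC and length offsets. BARD1 stood at 7.29, 6.36 and 6.76 CPM in GCA, against 9.08, 13.1 and 13.6 CPM in CON (log2 -0.81 ± 0.19, adjusted p = 0.00562). RBBP8 encodes CtIP, which switches on the MRE11 nuclease, and stood at 15.2, 20.1 and 18.5 CPM in GCA, against 22.0, 36.1 and 41.3 CPM in CON (log2 -0.89 ± 0.20, adjusted p = 0.00508). With the offsets BARD1 stood at -0.46 (adjusted p = 0.0428) and RBBP8 at -0.56 (0.0254). In all of these CON 1 was the lowest CON library and still exceeded every GCA library.

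The MRE11-RAD50-NBN complex, which binds broken ends, also fell. MRE11 stood at 2.08, 3.51 and 3.40 CPM in GCA, against 3.51, 6.73 and 6.78 CPM in CON (log2 -0.92 ± 0.29, adjusted p = 0.0246). CON 1 here equalled GCA 2. RAD50 fell by 0.72 and NBN by 0.50 on the log2 scale, and in RAD50 the CON 1 level of 13.9 CPM lay below GCA 1 and GCA 2, at 15.3 and 16.1 CPM. All 3 calls were lost when any single library other than CON 1 was left out: the adjusted p then ran from 0.0522 to 0.109 for MRE11, from 0.0708 to 0.137 for RAD50 and from 0.0684 to 0.148 for NBN. They were also lost with the offsets, which left -0.57, -0.36 and -0.15.

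Of the 9 strand exchange genes, 6 fell and 3 had no call. BRCA2 (chromosome 13, 32315077 to 32400268), which prepares single-stranded DNA for strand invasion, stood at 2.83, 2.34 and 2.99 CPM in GCA, against 3.51, 9.33 and 7.61 CPM in CON (log2 -1.33 ± 0.31, adjusted p = 0.00562). The GCA libraries lay close together while CON 1 was under the other CON libraries by a wide margin. RAD54B and RAD54L encode motor proteins that help the trimmed strand invade the intact molecule. RAD54B stood at 3.87, 5.29 and 5.76 CPM in GCA, against 10.7, 14.9 and 11 CPM in CON (log2 -1.29 ± 0.21, adjusted p = 0.000552). RAD54L (chromosome 1, 46247688 to 46278473) stood at 15.7, 13.7 and 16.2 CPM in GCA, against 30.4, 34.3 and 31.1 CPM in CON (log2 -1.07 ± 0.13, adjusted p = 0.00011). The groups were far apart in both genes, and RAD54L stood at -1.15 with the offsets.

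The related genes XRCC2, XRCC3, RAD51B, RAD51C and RAD51D, whose products act in strand exchange, did not all pass the test. XRCC2 stood at 5.81, 5.85 and 6.18 CPM in GCA, against 13.1, 11.8 and 13.0 CPM in CON (log2 -1.09 ± 0.16, adjusted p = 0.000345). Both groups were tight and did not overlap. RAD51C fell by 0.80 ± 0.13 and RAD51D by 0.60 ± 0.17 on the log2 scale, while RAD51B had -0.06 ± 0.24 (adjusted p = 0.868) and XRCC3 -0.07 ± 0.13 (adjusted p = 0.713). XRCC3, the highest of them per length, stood at 61.8, 53.1 and 55.7 CPM in GCA, against 69.3, 54.9 and 54.5 CPM in CON, and the groups overlapped. With the offsets XRCC3 was called, at -0.50 (adjusted p = 0.00714), and RAD51B turned to 0.24 without a call. Whether these genes' fold changes differ from each other was not tested. PALB2, the bridge between BRCA1 and BRCA2, had -0.40 ± 0.20 (adjusted p = 0.129), and was called without CON 1 (adjusted p = 0.0127). The RAD51D call was lost without GCA 2 (adjusted p = 0.0646), GCA 3 (0.0772) or CON 3 (0.0626).

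**Figure D4:**
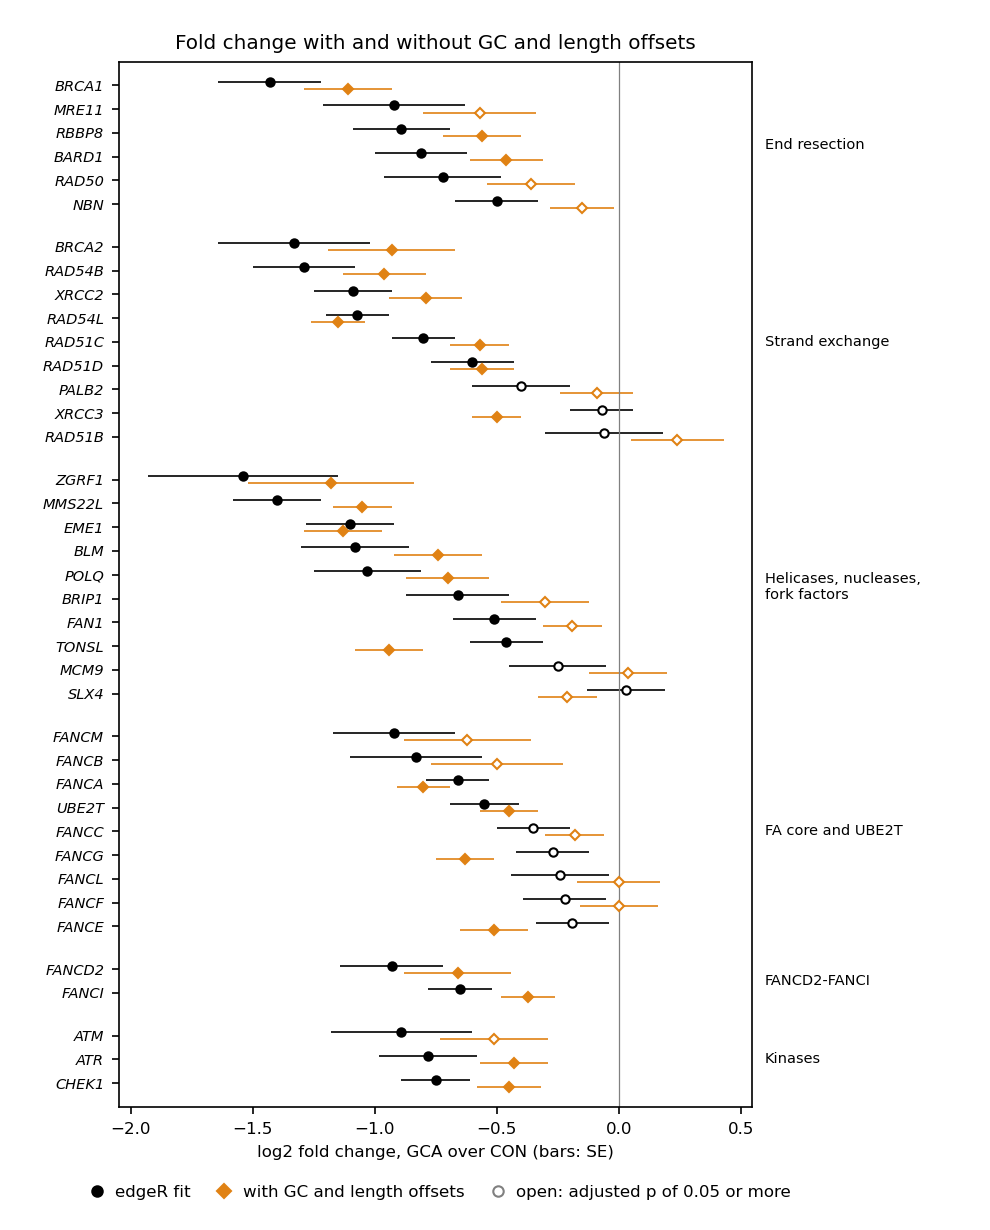
Log2 fold change of GCA over CON with its SE for the 39 genes by role; black circles are the edgeR fit and orange diamonds the fit with GC and length offsets, and open symbols have an adjusted p of 0.05 or more. Most black circles lie between -1.5 and -0.5, the diamonds lie higher than the circles in all 30 genes with a GC content below 50.4%, and XRCC3, TONSL, FANCG and FANCE lie further below 0 with them.

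Of the 10 helicase, nuclease and fork genes, 8 fell. ZGRF1, a helicase gene whose product aids strand exchange, had few reads: its counts were 16, 23 and 27 in GCA 1 to 3, against 31, 98 and 58 in CON 1 to 3. In CPM this was 0.794, 1.17 and 1.41 in GCA, against 1.73, 5.11 and 3 in CON. It had the largest fall of the 39 and the largest error (log2 -1.54 ± 0.39, adjusted p = 0.00838), and the call was lost without CON 2 (adjusted p = 0.0547). MMS22L and TONSL form a complex that promotes recombination at stalled replication forks. MMS22L (chromosome 6, 97142161 to 97284035) stood at 5.76, 6.57 and 5.55 CPM in GCA, against 12.5, 17 and 17.8 CPM in CON (log2 -1.40 ± 0.18, adjusted p = 0.000147). Its partner TONSL, at 163, 120 and 144 CPM in GCA and 231, 188 and 167 CPM in CON, fell by 0.46 ± 0.15 (adjusted p = 0.0314); the difference between the partners was not tested. The TONSL groups were nearly touching, and its call was lost without GCA 2 (adjusted p = 0.146), GCA 3 (0.103) or CON 2 (0.0674). MMS22L has a GC content of 38.2% and TONSL of 65.0%, and with the offsets the partners stood at -1.05 and -0.94.

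EME1, the partner of the MUS81 nuclease, stood at 9.87, 6.51 and 7.65 CPM in GCA, against 17.5, 18 and 16.2 CPM in CON (log2 -1.10 ± 0.18, adjusted p = 0.000539). BLM, the helicase that undoes joined molecules, stood at 5.86, 4.99 and 5.08 CPM in GCA, against 7.74, 13.8 and 12.1 CPM in CON (log2 -1.08 ± 0.22, adjusted p = 0.00249). POLQ, the polymerase of an alternative end-joining route, fell by 1.03 ± 0.22. None of these 3 calls was lost with any library left out or with the offsets. The helicase gene BRIP1 fell by 0.66 and the crosslink nuclease gene FAN1 by 0.51. Both lost their calls with the offsets, at -0.30 and -0.19, and without GCA 2 (adjusted p = 0.0909 and 0.0677), GCA 3 (0.123 and 0.142), CON 2 (0.102 and 0.138) or CON 3 (0.0668 and 0.126), FAN1 also without GCA 1 (0.066). MCM9, a helicase gene, had -0.25 ± 0.20 (adjusted p = 0.359). SLX4, the scaffold of several repair nucleases, had 14.4, 13.2 and 14.8 CPM in GCA, against 11.3, 15 and 15.3 CPM in CON, and the groups overlapped (log2 0.03 ± 0.16, adjusted p = 0.898). It was the single positive value among the 39, and was negative with library size alone (-0.03), without CON 1 (-0.1) and with the offsets (-0.21).

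Of the 8 FA core genes and UBE2T, 4 fell and 5 had no call, with a median of -0.35. FANCA (chromosome 16, 89737549 to 89816647), a core scaffold gene, stood at 82.9, 61.6 and 70.6 CPM in GCA, against 116, 112 and 111 CPM in CON (log2 -0.66 ± 0.13, adjusted p = 0.00192), or -0.80 with the offsets. UBE2T stood at 46.6, 47.3 and 42.5 CPM in GCA, against 82.3, 60.8 and 56.5 CPM in CON (log2 -0.55 ± 0.14, adjusted p = 0.0109), and lost its call without GCA 3 (adjusted p = 0.064). Neither gene's groups overlapped. FANCM, a motor protein gene of the complex's DNA anchor, stood at 1.89, 2.85 and 2.46 CPM in GCA, against 5.40, 3.75 and 4.50 CPM in CON (log2 -0.92 ± 0.25, adjusted p = 0.0115). FANCB had 28, 27 and 30 counts in GCA and 50, 55 and 40 in CON (log2 -0.83 ± 0.27, adjusted p = 0.029). The last pair lost their calls with the offsets, at -0.62 and -0.50, FANCM also without GCA 1 (adjusted p = 0.0525) and FANCB without GCA 1 (0.0782), GCA 2 (0.0928), GCA 3 (0.0738) or CON 2 (0.117).

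FANCC had -0.35 ± 0.15, FANCG -0.27 ± 0.15, FANCL, the ubiquitin ligase subunit, -0.24 ± 0.20, FANCF -0.22 ± 0.17 and FANCE -0.19 ± 0.15 on the log2 scale, none with a call. FANCC passed without GCA 1 (adjusted p = 0.0334) or CON 1 (0.0209), and with the offsets FANCG and FANCE passed, at -0.63 and -0.51. The ubiquitin target pair fell together. FANCD2 (chromosome 3, 10026437 to 10101932) stood at 14.5, 11.7 and 7.18 CPM in GCA, against 23.2, 20.9 and 19.7 CPM in CON (log2 -0.93 ± 0.21, adjusted p = 0.00486). FANCI stood at 22.4, 22.6 and 18.9 CPM in GCA, against 32.6, 35.2 and 32.3 CPM in CON (log2 -0.65 ± 0.13, adjusted p = 0.00219). GCA 3 was the lowest library in both genes, and the groups did not overlap. With the offsets they stood at -0.66 (adjusted p = 0.0494) and -0.37 (0.0289).

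All 3 kinase genes fell. CHEK1, which encodes the kinase that acts below ATR at stalled forks, stood at 17.8, 15.9 and 13.7 CPM in GCA, against 25.3, 26.9 and 27.7 CPM in CON (log2 -0.75 ± 0.14, adjusted p = 0.00155). ATR (chromosome 3, 142449235 to 142578733) stood at 5.81, 6.72 and 5.55 CPM in GCA, against 8.02, 12.8 and 10.1 CPM in CON (log2 -0.78 ± 0.20, adjusted p = 0.0096). ATM, the kinase of double-strand breaks, stood at 2.23, 3.10 and 2.83 CPM in GCA, against 2.90, 6.31 and 5.85 CPM in CON (log2 -0.89 ± 0.29, adjusted p = 0.0301). The ATM groups overlapped through CON 1, those of CHEK1 and ATR did not. With the offsets CHEK1 stood at -0.45 (adjusted p = 0.0242), ATR at -0.43 (0.0447) and ATM at -0.51 (0.109). The ATR call was lost without GCA 3 (adjusted p = 0.054) or CON 2 (0.0642), and the ATM call without any library other than CON 1 (adjusted p from 0.0646 to 0.134).

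Some of these counts can gain or lose reads through overlapping genes, since no source used here gives the strand setting of the counting. In GENCODE release 29, at least 10% of the exon bases of 7 of the 39 genes also lie in exons of a protein-coding gene on the other strand. The share was 76.7% for XRCC3 with KLC1, 25.1% for RAD54L with LRRC41, 24.3% for FAN1 with MTMR10, 23.6% for FANCA with ZNF276, 18.7% for FANCL with VRK2, 16.4% for EME1 with LRRC59 and 11.3% for FANCF with GAS2. LRRC41 was higher in GCA (log2 0.57) and LRRC59 and VRK2 were lower (-0.55 and -0.85), while KLC1, MTMR10 and ZNF276 had no call and GAS2 lay below the filter. On the same strand, RAD54B shares 59.1% of its exon bases with FSBP, and RAD50 shares 79.7% with an unnamed gene model. RBBP8, MRE11 and FANCD2 have named pseudogenes, and ATR shares 16.4% of its exon bases with a processed pseudogene on the other strand. The values of all these genes are uncertain to that extent.

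The other genes of recombination and the FA pathway, taken from a list made by function, are set beside them. Of 65 listed genes 64 had a row and 63 were tested; 33 fell, 2 rose and 28 had no call, with a median of -0.46. With the offsets 29 fell and none rose. The nuclease gene EXO1 stood at 7.75 ± 1.60 CPM in GCA and 22.1 ± 1.03 CPM in CON (SD, n = 3 each). PSMC3IP, a strand exchange cofactor, fell by 1.08 ± 0.15 and RFWD3, a ubiquitin ligase and FA gene, by 0.86 ± 0.13. These 3 calls were kept without any single library. The genes that rose were EME2, another MUS81 partner (log2 0.59 ± 0.18, adjusted p = 0.0247), and FAAP20, a core complex subunit (0.42 ± 0.13, adjusted p = 0.0254). With the offsets they stood at -0.04 and -0.06 with no call, and both calls were lost without GCA 2 (adjusted p = 0.11 and 0.0825), GCA 3 (0.0577 and 0.105) or CON 2 (0.0556 and 0.119), FAAP20 also without CON 3 (0.0988). The meiotic gene DMC1 lay below the filter, with 2, 5 and 1 counts in GCA and 3, 4 and 6 in CON. The falls numbered 20 without GCA 2, 18 without GCA 3 and 38 without CON 1, beside 1484, 1128 and 3482 lower calls over all genes.

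Partners in checkpoint signalling and genes of end joining, the route that rejoins ends without a template, were looked up too. Of 18 checkpoint partners 10 fell and none rose, with a median of -0.53. CLSPN, the adaptor between ATR and CHEK1, stood at 7.31 ± 1.73 CPM in GCA and 18.1 ± 2.39 CPM in CON (log2 -1.30 ± 0.19, adjusted p = 0.000346). The phosphatase gene CDC25A fell by 0.77 ± 0.14, the kinase gene WEE1 by 0.61 ± 0.11 and the checkpoint clamp gene RAD1 by 0.66 ± 0.12; with the offsets WEE1 stood at -0.34 and RAD1 at -0.39, both still called. Of 17 end-joining genes 6 fell, 1 rose and 10 had no call, with a median of -0.22. XRCC5 (Ku80) fell by 0.62 ± 0.15, PRKDC by 0.61 ± 0.17 and DCLRE1C (Artemis) by 0.76 ± 0.21 on the log2 scale. SHLD1, a subunit of the shieldin complex that protects ends from trimming, rose: it stood at 3.82, 3.41 and 4.03 CPM in GCA, against 1.73, 1.93 and 2.33 CPM in CON (log2 0.91 ± 0.24, adjusted p = 0.0108). SHLD1 had 1.01 with the offsets and lost its call without GCA 3 (adjusted p = 0.0543). The calls of PRKDC without GCA 2 (0.0743) or GCA 3 (0.092), and of DCLRE1C without GCA 1 (0.0569), CON 2 (0.0762) or CON 3 (0.0515), were also lost, and both were lost with the offsets. With the offsets 2 end-joining genes were lower, XRCC5 (-0.37) of the 6 and PAXX (-0.73), which had -0.03 and no call without them.

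**Figure D5:**
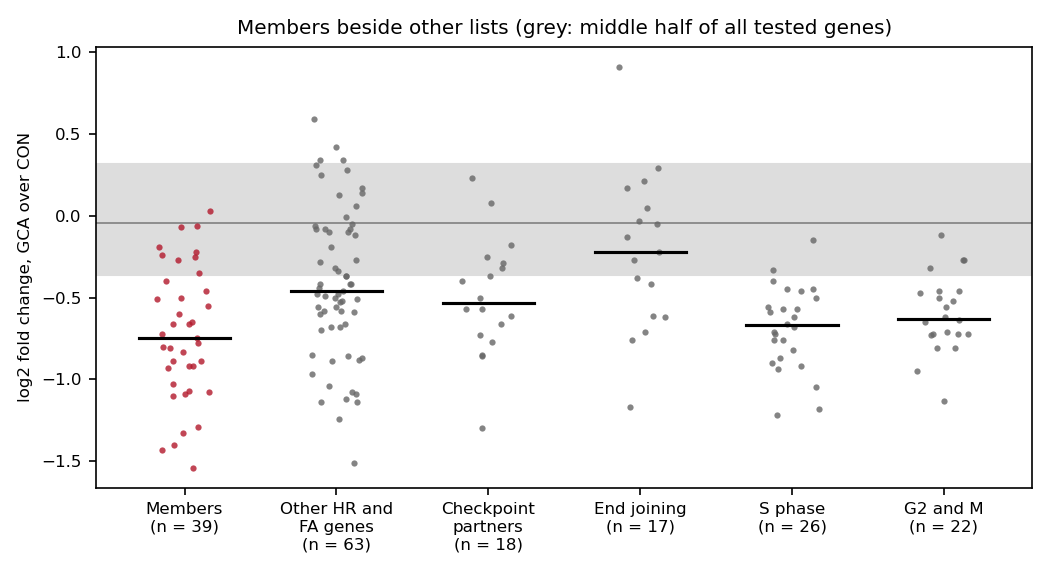
Log2 fold change of GCA over CON for each tested gene of 6 lists, with the median of each as a black line; the grey band holds the interquartile range of all tested genes and the grey line is their median. Without GC and length offsets, medians lie at -0.75 for the 39 genes, -0.46 for the other recombination and FA genes and -0.53 for checkpoint partners. They lie at -0.22 for end joining, -0.67 for S phase and -0.63 for G2 and M.

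Genes of DNA replication and division moved with this set. Of the 26 S phase genes 24 fell, with no gene higher, and their summed level was 3000 to 4020 CPM in GCA libraries and 4670 to 5960 CPM in CON libraries. Of the 22 genes of G2 and M 17 fell, with no gene higher and with sums of 1880 to 2460 CPM in GCA and 2480 to 3340 CPM in CON. With the offsets 24 S phase genes were lower, with a median of -0.74, and 14 genes of G2 and M, with a median of -0.44. The 39 genes then had 24 lower and a median of -0.51. MCM2, a subunit of the replicative helicase, had -0.59 ± 0.19 (adjusted p = 0.0306) and the proliferation marker MKI67 -0.64 ± 0.20 (adjusted p = 0.0254). Both of these calls were lost without GCA 2 (adjusted p = 0.144 and 0.113) or GCA 3 (0.155 and 0.133), and that of MKI67 also with the offsets (0.122). MCM2 kept its call with the offsets, at -0.88 (adjusted p = 0.00822). Each was named as the first on its list, so these losses do not describe the other genes of the lists. The 39 genes summed to 679 to 794 CPM in GCA and 1030 to 1100 CPM in CON. The part of the cell cycle in the lower levels of the recombination and FA genes was not tested.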

How the data were processed

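The authors deposited raw counts per gene symbol and FPKM values for the same 16229 genes, 1 column per sample. The submitters' processing notes name hg38, HTSeq 0.11.2, HISAT2 2.2.1.0 and fastp 0.20.1. The sources used here give no annotation or strand setting. Each FPKM the authors deposited equals the count over the library total and 1 length per gene (relative tolerance 1e-09), so FPKM adds no separate measurement. Columns were matched by sample title. Counts were tested with edgeR 4.0.16 in R 4.3.3 (TMM, filterByExpr with minimum count 10 and minimum total 15, quasi-likelihood test, Benjamini-Hochberg at 0.05). The SE is the size of the log2 fold change over the square root of F. The test was checked on simulated counts with no outlying library and no trend with GC content, unlike these data. A floor of 3 counts equals 0.146 to 0.166 CPM and covers counting error only.

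The genes and lists were chosen with earlier results of these data known. Among the members, values by library were given for the 4 largest changes per role and positive members. Outside this rule they were also given for XRCC3, TONSL and, in part, RAD50. Beyond the members, the genes named were the 4 with the lowest p and the opposite calls of each other repair list and the first gene of each cell cycle list; PAXX and the markers of other cell types were named after their values were seen, and 1 gene that the rule names is not reported here. GC content came from GENCODE 29 transcripts (99.2% of genes), and offsets from natural splines of 5 degrees of freedom on GC content and log length per library. Alternatives also used limma 3.58.1 and DESeq2 1.42.0. Libraries with the same number deviated together from their groups' means (r over genes of 0.206, 0.137 and 0.104). Differently numbered ones gave -0.172 to 0.0954, so the lowest matched value lay close to the highest unmatched one. The edgeR fit behind the calls above used no pairing. A fit with the replicate numbers as pairs is given below as an alternative. Every pair of replicates differed by more than counting noise.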

Additional observations from a re-analysis of the deposited data

How the results depend on the processing

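The table-wide number of calls was 4584; it was 7419 without replicate 1 of both groups and ran from 2621 to 6707 with 1 library left out. The recombination and FA genes called lower were 29, or 17 with limma on unfiltered log2(FPKM + 1), and 18 to 31 with 1 library left out. The other recombination and FA genes called lower were 33, and 18 to 38 with 1 library left out. With the replicate block (paired fit) these counts were 5163, 29 and 33, the same 29 genes were called, and with the block and offsets together they were 4347, 25 and 32. In no alternative was any of the 39 genes called higher, and no value that changed sign was called under that alternative. RAD51B turned to 0.24 with offsets with or without the block, 0.02 without GCA 3, 0.004 without CON 2 and 0.05 without CON 3 (range -0.19 to 0.05 with 1 library left out). XRCC3 turned to 0.05 without CON 1 (range -0.12 to 0.05) and 0.02 without replicate 1 of both groups, and MCM9 to 0.04 with offsets with or without the block. SLX4 turned to -0.03 with library size alone, -0.01 with log2(FPKM + 1), -0.004 with log2(FPKM + 0.1), -0.21 with offsets with or without the block, -0.004 without GCA 3, -0.1 without CON 1 (range -0.1 to 0.12) and -0.09 without replicate 1 of both groups. With offsets FANCF turned to 0.001, FANCL to 0.0006 (0.01 with the block), EME2 to -0.04 (-0.04 with the block) and FAAP20 to -0.06 (-0.05 with the block). Low counts limit ZGRF1 and FANCB. The cause of these differences was not tested.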

Other observations

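Of the 39 genes, 30 had a transcript GC content below 50.4%, the median of the tested genes. In these, 24 fell, the median being -0.80 on the log2 scale, and with GC and length offsets 16 fell with a median of -0.48. In the 9 genes above that median, 5 fell with a median of -0.46, and with offsets 8 fell with a median of -0.63. Over all tested genes below that median 30.1% were lower and 12.6% with offsets, and above it 6.11% and 21.9%.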
